A study of Mus musculus with 84 samples.

Results

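A set of 9 genes of lipoprotein transport and cholesterol export were followed across mouse astrocyte populations isolated by cell sorting. The genes were chosen by name as Apoe, Clu, Apod, Abca1, Abcg1, Lcat, Lrp1, Nr1h2 and Nr1h3. No cut on a measured value picked them, but earlier results of these data were known, so the set is not independent of them. They are 9 of 48526 genes in the table of the experimental autoimmune encephalomyelitis (EAE) experiment. In the table of the subtype experiment they are 9 of 25773 genes. All 9 were found in both tables by their Ensembl identifier, and all 9 passed the filter on low counts. The EAE experiment held 66 libraries of female C57BL/6 mice. The mice were unimmunized (C) or given the MOG35-55 peptide with complete Freund's adjuvant and pertussis toxin at 10 weeks of age. Immunized mice were taken at clinical score 1 (E1, a limp tail), at score 4 (E4, paralysed hind legs) or in the chronic stage (Ech). Their age when taken, and that of the controls, is not given. A library could pool cells of up to 2 mice. Cells were sorted as negative for CD11B and CD45 and positive for ACSA-2, an epitope of the protein of Atp1b2, and were split by GLAST, the glutamate transporter encoded by Slc1a3. Hindbrain (cerebellum and brain stem) gave GLASTneg and GLASTpos populations, and spinal cord (cervical and thoracic) only GLASTneg, with 4 to 6 libraries in each of the 12 groups. In the subtype experiment, 5 labelled populations of FVB/N mice had 3 libraries each (15 in all), beside 3 libraries of cultured astrocytes of neonatal C57BL/6J mice. The labels do not say which libraries came from the same animals. Bracketed numbers in the EAE titles recur across populations, and 49 pairs of libraries of the same stage share one. What these numbers stand for is not stated. The main fits treat libraries as independent and share an estimate of each gene's spread over all groups of the fit. Their p-values and standard errors thus measure the spread between libraries pooled over the populations, not that of the contrasted groups alone.

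Lipids in the central nervous system travel on particles that are made largely by astrocytes. Apolipoprotein E (Apoe) and clusterin (Clu, apolipoprotein J) are the main carriers secreted by astrocytes, while apolipoprotein D (Apod) is a lipocalin that binds small lipids and is made by oligodendrocytes and other glia. The transporters Abca1 and Abcg1 move cholesterol out of the cell onto these particles, lecithin-cholesterol acyltransferase (Lcat) esterifies the cholesterol on them, and the receptor Lrp1 takes up Apoe-bearing particles. The liver X receptors, LXRβ (Nr1h2) and LXRα (Nr1h3), are nuclear receptors that sense oxysterols and induce Abca1, Abcg1 and Apoe.

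The genes lie on 8 chromosomes of GRCm38. Apoe was annotated at chr7:19696109-19699188, Clu at chr14:65968483-65981547, Apod at chr16:31296192-31314808, Abca1 at chr4:53030787-53159895, Abcg1 at chr17:31057675-31117988, Lcat at chr8:105939551-105943382, Lrp1 at chr10:127538161-127621148, Nr1h2 at chr7:44549616-44553951 and Nr1h3 at chr2:91184061-91202834. An antisense gene, Gm16156, covers the whole of Lcat, and the sources do not say whether strand was used in counting. Reads of both genes cannot be told apart, and the Lcat values are uncertain. Lrp1 (1323 bases, Gm16217), Nr1h3 (6873 bases, Gm13783) and Abcg1 (128 bases, Gm25447) share part of their span with another annotated gene outside their last 1000 bases.

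The promoters of 3 genes are shown because their genes moved in the spinal cord, Abca1 and Apoe downwards and Apod upwards. They are the 250 bases before the annotated start in RefSeq, build GRCm38.p6, on the strand of the gene (minus for all of them), at chr4:53159896-53160145 for Abca1, at chr7:19699189-19699438 for Apoe and at chr16:31314809-31315058 for Apod. The capitals mark a match to the LXR element type of Abca1, the half-sites GGTTA and CGGTCA with 4 bases between them, found on the strand opposite to the gene.
Abca1: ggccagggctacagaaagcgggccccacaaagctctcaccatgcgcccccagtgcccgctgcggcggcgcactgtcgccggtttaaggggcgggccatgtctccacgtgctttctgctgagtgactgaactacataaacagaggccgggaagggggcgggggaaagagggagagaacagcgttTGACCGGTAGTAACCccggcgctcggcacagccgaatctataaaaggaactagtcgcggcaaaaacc
Apoe: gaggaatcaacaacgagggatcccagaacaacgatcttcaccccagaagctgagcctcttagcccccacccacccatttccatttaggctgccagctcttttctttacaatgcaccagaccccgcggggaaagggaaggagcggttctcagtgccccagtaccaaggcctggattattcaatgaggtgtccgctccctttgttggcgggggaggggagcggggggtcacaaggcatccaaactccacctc
Apod: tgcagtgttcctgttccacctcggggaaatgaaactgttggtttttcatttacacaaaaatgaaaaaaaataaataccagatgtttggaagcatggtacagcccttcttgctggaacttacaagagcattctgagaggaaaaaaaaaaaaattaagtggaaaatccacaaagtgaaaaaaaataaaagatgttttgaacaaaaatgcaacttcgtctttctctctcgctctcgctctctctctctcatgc
The match in Abca1 lay at positions -67 to -53 from the start, and 4 of 32851 promoters of this length (0.0122%) held that element on either strand. The pattern searched is the Abca1 type of the element, so that its match in Abca1 is a description and not a test. The consensus LXR element, the half-site AGGTCA repeated after 4 bases (0.0152% of promoters), that half-site alone (14%) and the sterol regulatory element (0.0731%), also searched on both strands, had no match in the windows of the members, and Clu and Abcg1 were not searched.

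Library totals ran from 1313682 to 4895220 counts in the EAE experiment (median 2936680), from 416768 to 1269316 in the isolated FVB/N cells and from 2183464 to 8188074 in the cultured cells. Levels below are CPM, the share of a library in counts after scaling by the trimmed mean of M values (TMM), 3 counts were worth 0.613 to 2.28 CPM in the EAE experiment, a limit for counting error only. A gene was said to rise or fall where the Benjamini-Hochberg adjusted p of edgeR's quasi-likelihood test, two-sided and adjusted over all 23324 genes of the EAE fit, was under 0.05, and differences are log2 fold changes with their standard error (SE).

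The labelled cell type was checked first. In the hindbrain groups and in control spinal cord, the summed level of 8 astrocyte markers (Slc1a2, S100b, Fgfr3, Sox9, Aqp4, Aldh1l1, Aldoc and Gjb6) was 10610 CPM or more in each library. In spinal cord it had a mean of 13800 CPM in C (range 10610 to 16430), 8458 CPM at E1 (3999 to 17000), 3275 CPM at E4 (2542 to 4059) and 4818 CPM at Ech (3088 to 5995). All but S100b fell at E4 and at Ech, and Gjb6 and Aqp4 had means of 36.9 and 83.9 CPM at E4 against 1031 and 955 CPM in C. Atp1b2, which encodes the protein of the sort antigen, had a mean of 6598 CPM in C, 357 CPM at E4 and 456 CPM at Ech. The summed level of 10 oligodendrocyte markers was 22090 CPM in C (14360 to 41870), 41800 CPM at E1, 53350 CPM at E4 (30360 to 77680) and 32620 CPM at Ech. S100b, which oligodendrocytes also express, had means of 2141, 1900, 2208 and 3989 CPM in the same order. The spinal cord libraries of E4 and Ech therefore carried the label astrocyte with 7 of 8 astrocyte markers low, and the changes of the members from C in spinal cord are given on the CPM scale and again per marker count. The share of mitochondrial counts moved as well, from 11.4 to 13.6% in the C libraries to 6.01 to 8.07% at E4 and 6.05 to 7% at Ech, without overlap, and its part in the spinal cord results was not tested.

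**Figure D1:**
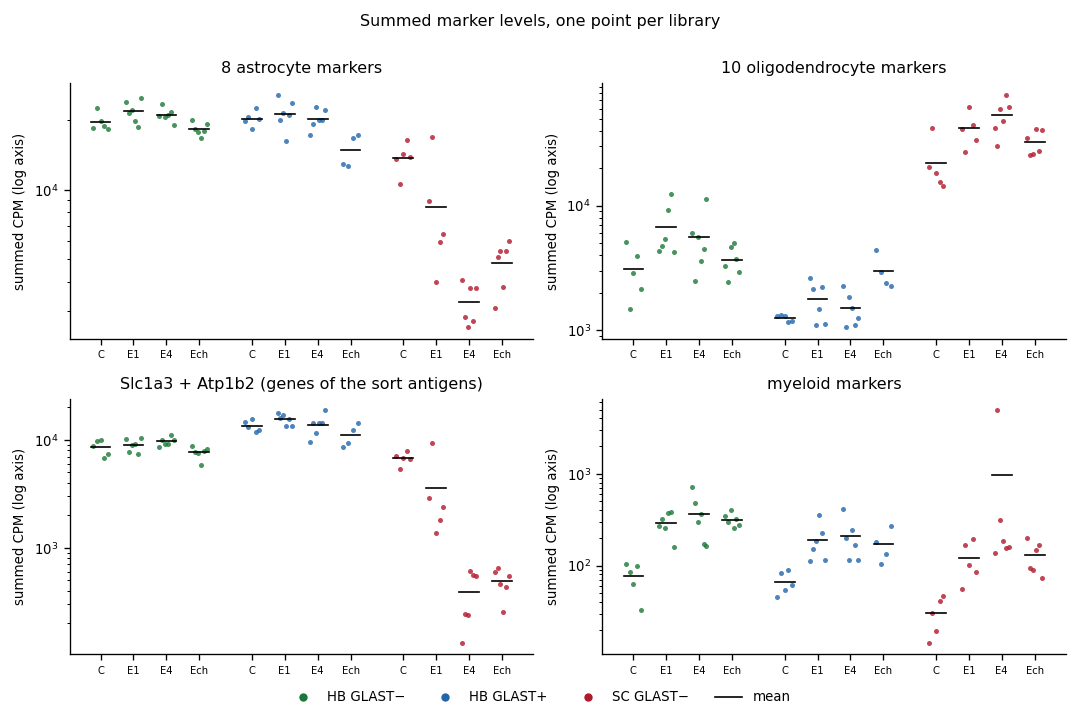
Summed levels of 4 marker lists in the EAE experiment (CPM, log axis), by stage on the x axis, with a point per library and a line at the group mean. In spinal cord (SC) the astrocyte markers and the genes of the sort antigens fell at E4 and Ech while oligodendrocyte markers were higher than in C, and 1 E4 library had 4891 CPM of myeloid markers. Myeloid markers were higher at each EAE stage than in C in every population.

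In spinal cord, 2 libraries stood apart from their groups. E1 replicate 2 had 17000 CPM of astrocyte markers against 3999 to 8906 CPM in the other E1 libraries, and E4 replicate 2 had 4891 CPM of 13 myeloid markers against 135 to 316 CPM in the other E4 libraries. Another library, E1 spinal cord replicate 1, is titled spinal cord but has hindbrain in its region label. Its summed level of 12 Hox genes was 341 CPM, within the 192 to 485 CPM of the E1 spinal cord libraries, and it was kept in the group of its title. Myeloid markers were higher at E1, E4 and Ech than in C in every population. Their means were 76.4, 293.5, 364.8 and 316 CPM in GLASTneg and 66.9, 189.9, 208.6 and 171.5 CPM in GLASTpos hindbrain (C, E1, E4, Ech). Spinal cord medians were 30.4, 100.7, 172 and 121.9 CPM, and the part of these markers in the member values was not tested.

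The question of the EAE comparisons was how each population changes with disease. In spinal cord, Apoe and Clu fell at all 3 stages and Apod rose at all 3, whereas in the hindbrain populations Apod was the only member that passed the test. In spinal cord, 1 member rose and 3 fell at E1, where 3.94% of all genes rose and 4.48% fell (8.42% in either direction). At E4 1 rose and 5 fell (9.76% and 12.7% of all genes, 22.4% in all), and at Ech 1 rose and 6 fell (7.64% and 11%, 18.7% in all). The median log2 fold change of the 9 members was -0.68 at E1, -1.31 at E4 and -0.96 at Ech, and that of all genes was 0 at each stage. In bulk samples, fewer cells of a type and less RNA per cell cannot be told apart.

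**Figure D2:**
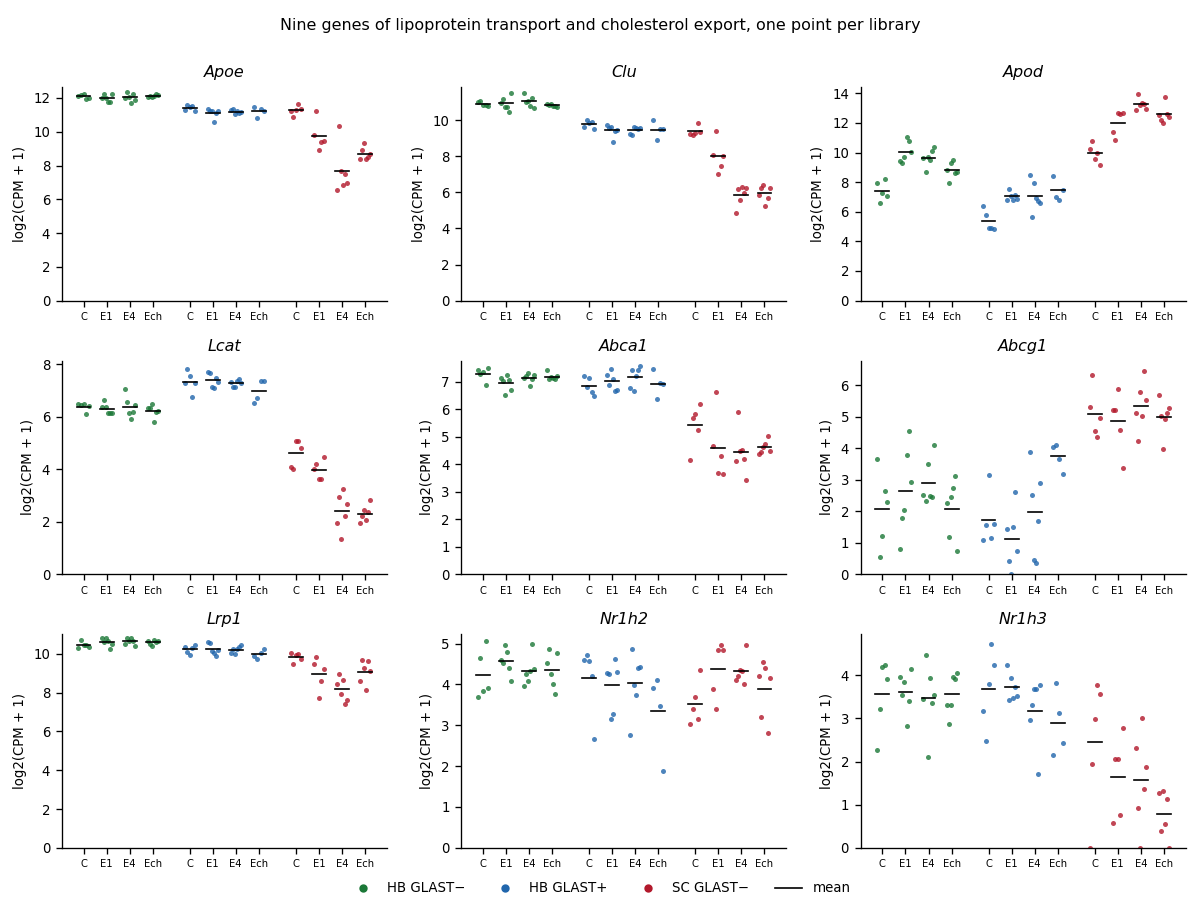
Levels of the 9 members as log2(CPM + 1) in the 66 EAE libraries, by population (colour) and stage (x axis), with a point per library and a line at the mean of the log2 values. Apoe, Clu and Lcat of spinal cord (SC) sit below their controls at E4 and Ech, and Apod sits above, while in the hindbrain (HB) groups Apod is the member whose changes passed the test.

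Apoe fell in spinal cord at each stage. It was measured at 2579, 2437, 1845, 2538 and 3177 CPM in the 5 control libraries and at 910.5, 2413, 474, 659.7 and 704.3 CPM in the 5 libraries of E1. At E4 the lowest, median and highest of 6 libraries were 93.1, 152 and 1322 CPM, and at Ech they were 336, 380 and 641 CPM. E1 replicate 2 lay within the control range and the 4 other E1 libraries below it, and no library of E4 or Ech reached the lowest control. The log2 fold change was -1.29 ± 0.35 (SE) at E1 (adjusted p = 0.0115), -2.89 ± 0.35 at E4 (2.32e-10) and -2.56 ± 0.34 at Ech (8.78e-09). Without the pair of libraries that stood apart it was -1.89 at E1 and -4.14 at E4. The call at E1 was lost without E1 replicate 3 (-1.08, adjusted p = 0.067) and in a fit of the spinal cord libraries alone (-1.26, adjusted p = 0.14).

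Clu also fell at each stage. The controls had 659.8, 601.3, 576.5, 626.4 and 920 CPM and the E1 libraries 274, 677.7, 128.8, 177.1 and 255.9 CPM. At E4 the 6 libraries ran from 27.6 to 76.6 CPM with a median of 65.97 CPM, and at Ech from 36.3 to 85 CPM with a median of 66.6 CPM. E1 replicate 2 again lay among the controls, and every E4 and Ech library was below every control. Its change from C was -1.16 ± 0.25 at E1 (adjusted p = 0.000901), -3.50 ± 0.26 at E4 (9.7e-19) and -3.41 ± 0.25 at Ech (2.84e-18). At E1 it was -1.71 without the pair of libraries that stood apart and -0.97 with an adjusted p of 0.083 among the libraries with a sheet number above 56, a running number in the labels.

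Apod moved the other way. Control spinal cord libraries had 580.5, 1229, 1774, 747.7 and 986.4 CPM, and E1 libraries 2730, 1818, 6506, 6114 and 6395 CPM. At E4 the lowest, median and highest were 7503, 9729 and 16020 CPM, and at Ech 4165, 5681 and 14120 CPM. All spinal cord libraries of EAE mice were above all controls. Its change from C was 2.15 ± 0.40 at E1 (adjusted p = 0.000105), 3.26 ± 0.41 at E4 (1.02e-09) and 2.66 ± 0.40 at Ech (1.93e-07). The highest E4 value was that of replicate 2, the library rich in myeloid markers, and without the pair of libraries that stood apart the change at E4 was 3.09.

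Lcat, the enzyme that esterifies cholesterol on the particles, was low in spinal cord and fell at the later stages. It had 27.27, 16.07, 14.91, 32.34 and 32.76 CPM in C and 15.18, 17.32, 11.46, 11.3 and 21.09 CPM at E1, and these groups overlapped. At E4 the range was 1.56 to 8.56 CPM (median 4.48) and at Ech 2.82 to 6.03 CPM (median 3.93), all below the lowest control. The log2 fold change was -0.68 ± 0.25 at E1 (adjusted p = 0.0799), -2.38 ± 0.26 at E4 (1.61e-11) and -2.58 ± 0.26 at Ech (8.25e-13). At E1 it passed with DESeq2 (-0.71, adjusted p = 0.030) and without any one of C replicate 2, C replicate 3 and E1 replicate 5 (-0.80 to -0.83).

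The exporters differed from each other. Abca1 had 71.88, 16.73, 50.74, 55.89 and 36.97 CPM in control spinal cord and 24.14, 98.9, 11.85, 18.84 and 11.53 CPM at E1. It ran from 9.77 to 58.4 CPM (median 19.5) at E4 and from 19.8 to 31.5 CPM (median 22.8) at Ech, so that each stage overlapped the controls, 1 of which had 16.73 CPM. Abca1 fell at E4 (-0.94 ± 0.32, adjusted p = 0.0256) and at Ech (-0.96 ± 0.32, 0.0253) and not at E1 (-0.51 ± 0.34, 0.346). These calls were lost in the fit of spinal cord alone (adjusted p = 0.16 for both), the one at E4 also without any one of 6 libraries (C replicates 1 and 4 and E4 replicates 1, 4, 5 and 6) and the one at Ech without C replicate 1 or 4, while without the pair of libraries that stood apart Abca1 was lower at E1 (-1.49, adjusted p = 2.1e-05) and at E4 (-1.41). Abcg1 had means of 37.6 ± 23.8 CPM (SD, n = 5) in C, 32.4 ± 18.1 at E1 (n = 5), 44.6 ± 23.9 at E4 (n = 6) and 32.6 ± 11.4 at Ech (n = 6). Its log2 fold changes of -0.22, 0.25 and -0.21 each had an SE of 0.60 or more, and no stage passed the test.

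Lrp1, the uptake receptor, was lower at each stage in spinal cord, with the lowest values at E4. It had 867.1, 1048, 719.2, 985.4 and 1028 CPM in C and 703.4, 909.2, 210.6, 389.1 and 604.2 CPM at E1. The range was 172 to 499 CPM at E4 (median 296) and 282 to 833 CPM at Ech (median 587). Each E4 library was below each control, and the other stages overlapped them. The log2 fold change was -0.72 ± 0.23 at E1 (adjusted p = 0.0396), -1.59 ± 0.23 at E4 (3.41e-08) and -0.68 ± 0.22 at Ech (0.0215). The call at E4 was kept in the fit of spinal cord alone, but those at E1 and Ech were lost there (adjusted p = 0.17 and 0.14), the one at E1 also without any one of 7 libraries (C replicates 1, 2, 4 and 5 and E1 replicates 3, 4 and 5) and the one at Ech without C replicate 2 or 5 or Ech replicate 1 or 4.

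Of the LXRs, Nr1h3 was near the limit of the depth and Nr1h2 was low but above it, with 11 to 113 counts in each EAE library. Nr1h2 had group means between 10.8 and 23.1 CPM in the 12 groups and passed no test on the CPM scale, with spinal cord changes of 0.97 ± 0.41, 0.81 ± 0.39 and 0.44 ± 0.39 (adjusted p = 0.125, 0.124 and 0.482). Nr1h3 had 10.91, 0, 2.867, 6.908 and 12.63 CPM in control spinal cord and 1.411, 0.3057, 1.48, 0.4543, 1.199 and 0 CPM at Ech, where 3 of 6 libraries held more than 3 counts and the highest held 7. Its log2 fold change at Ech was -2.90 ± 0.69 (adjusted p = 0.00112). That call was lost in the fit of spinal cord alone (-2.91, adjusted p = 0.061), and the changes at E1 (-1.28 ± 0.68) and E4 (-1.31 ± 0.65) did not pass, although that at E4 did without E4 replicate 4 (-1.87, adjusted p = 0.048).

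**Figure D3:**
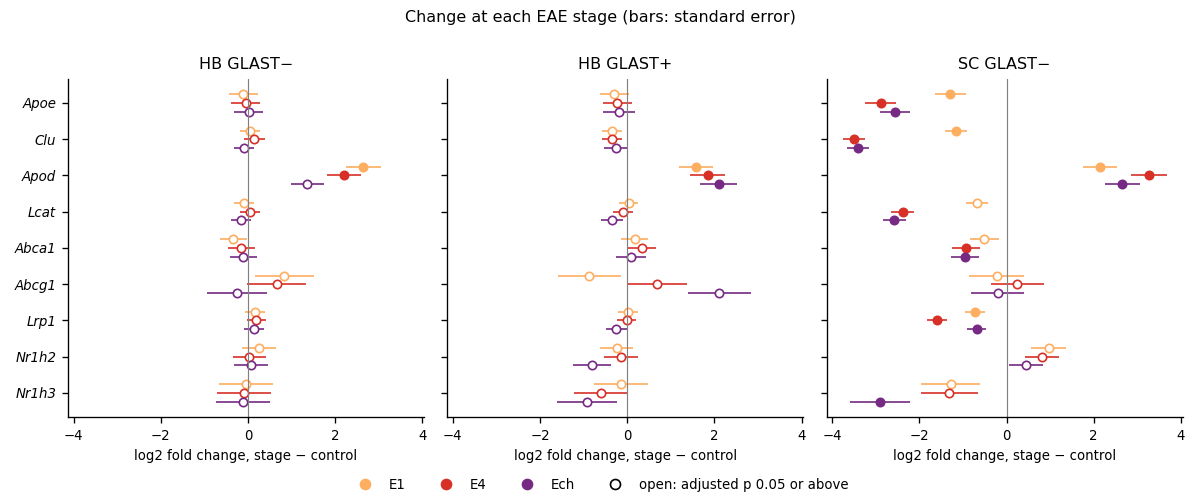
Log2 fold change of each member at E1, E4 and Ech against C (x axis) in the 3 EAE populations, with bars of 1 standard error and open points where the adjusted p was 0.05 or above. In the hindbrain panels Apod alone has filled points, Abcg1 at Ech reaches 2.11 without passing, and the spinal cord panel holds the falls of Apoe and Clu to -3.50.

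In the hindbrain, Apod was raised in both populations and no other member passed the test. In GLASTneg cells Apod had 248.2, 95.69, 154.5, 300.2 and 131 CPM in C, and the lowest, median and highest were 616, 950 and 2078 CPM at E1, 403, 820 and 1324 CPM at E4 and 240, 425 and 735 CPM at Ech. E1 and E4 lay above all controls and Ech overlapped them. The change from C was 2.65 ± 0.40 at E1 (adjusted p = 5.97e-06, 0.677% of all genes called), 2.21 ± 0.39 at E4 (0.000129, 0.755%) and 1.36 ± 0.38 at Ech (0.184, 0.197%). No member was called at Ech by edgeR or DESeq2, where 1 of 9 had an unadjusted p under 0.05 (7.64% of all genes), and Apod passed at Ech in a fit of the GLASTneg hindbrain libraries alone (1.36, adjusted p = 0.011).

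In GLASTpos hindbrain cells Apod had 27.38, 84.14, 54.17, 29.2 and 28.96 CPM in C. It ran from 108 to 187 CPM at E1 (median 124), from 50.2 to 349 CPM at E4 (median 113) and through 348.1, 129.7, 111.4 and 175.5 CPM at Ech. All libraries of E1 and Ech were above all controls. The log2 fold change was 1.57 ± 0.39 at E1 (adjusted p = 0.0156, 1.58% of all genes called), 1.84 ± 0.39 at E4 (0.002, 2.18%) and 2.10 ± 0.42 at Ech (0.00206, 1.43%). The call at E1 was lost without C replicate 1, 4 or 5 (1.43 to 1.48, adjusted p = 0.064 to 0.068).

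Apoe in GLASTneg hindbrain had a mean of 4433 ± 389 CPM in C (SD, n = 5) and of 4132, 4280 and 4485 CPM at E1, E4 and Ech, and in GLASTpos hindbrain of 2753 ± 313 CPM in C (n = 5) and 2240, 2346 and 2412 CPM. Its changes lay between -0.30 and 0.02 with an SE of 0.33 to 0.37, which rests on the spread of all 12 groups and not of the hindbrain alone. Clu had means of 1958, 2020, 2165 and 1834 CPM in the GLASTneg groups and 898, 707, 706 and 747 CPM in the GLASTpos groups in the order C, E1, E4 and Ech, with changes between -0.35 and 0.15. Abcg1 in GLASTpos cells had 15.32, 16.28, 11.46 and 8.1 CPM at Ech, all above the highest control of 7.87 CPM. That change of 2.11 ± 0.72 did not pass (adjusted p = 0.122) and passed without C replicate 4 (2.98, adjusted p = 0.043). The oligodendrocyte markers had group means of 3112 CPM in C and 6727 CPM at E1 in the GLASTneg hindbrain and of 1255 CPM in C (1170 to 1336) and 2988 CPM at Ech (2270 to 4399) in the GLASTpos hindbrain, and Apod per marker count is given below.

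Per count of 7 astrocyte markers of the same library, Clu in spinal cord overlapped its controls at E1 and E4 and lay above them at Ech. Counts were set against the summed counts of 7 astrocyte markers (S100b left out), and Clu then had a median of 55.5 per 1000 marker counts in C (range 50.5 to 65.6), 45.2 at E1 (43.1 to 55.99), 57.4 at E4 (44.7 to 77.03) and 74.2 at Ech (67.4 to 91.3). With these sums in place of the library size, the log2 fold change of Clu was -0.31 ± 0.21 at E1 (adjusted p = 0.27), -0.01 ± 0.21 at E4 (1) and 0.41 ± 0.21 at Ech (0.072). On the CPM scale Clu thus fell with the 7 markers, and its ratio to them differed between C and E4 by less than the SE. With all 8 markers, of whose counts S100b held 15.7% in C and 64.8% at E4, Clu was lower at E4 (-1.38) and Ech (-1.87).

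Apoe had a median of 217 per 1000 counts of the 7 markers in C (205 to 225), 161 at E1 (143 to 172), 156 at E4 (65.6 to 1426) and 525 at Ech (360 to 688). All E1 libraries were below and all Ech libraries above the controls. The scaled change was -0.44 ± 0.35 at E1 (adjusted p = 0.356), 0.76 ± 0.34 at E4 (0.046) and 1.31 ± 0.34 at Ech (0.00065). The direction at E4 rested on replicate 2, the library rich in myeloid markers, which had 1426 per 1000 against 65.6 to 274 in the other 5, and without the pair of libraries that stood apart Apoe was lower at E4 (-0.51 ± 0.22, adjusted p = 0.0406). Under this scaling the median of all genes shifted by 0.85 at E1, 3.26 at E4 and 3.64 at Ech, and 61.2% of all genes were called higher at E4, so that Apoe and Clu lay below the median gene at each stage. With all 8 markers Apoe was at -0.64, -0.64 and -1.01, with shifts of 0.61, 1.78 and 1.33.

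Lcat, Lrp1 and Abca1 were each higher than in C per 7 astrocyte markers at the later stages. Lcat had medians of 2.30, 2.76, 4.84 and 5.07 per 1000 in C, E1, E4 and Ech, with scaled changes of 1.08 ± 0.32 at E4 (adjusted p = 0.0025) and 1.26 ± 0.32 at Ech (0.00034). Lrp1 had medians of 79.4, 94.95, 278 and 633 per 1000, and Abca1 of 4.51, 4.31, 20.9 and 27.8 per 1000. Their scaled changes were 2.09 and 3.15 for Lrp1 and 2.66 and 2.95 for Abca1 at E4 and Ech. All of these lay below the shift of the median gene. Nr1h3 was at 2.21 at E4 (adjusted p = 0.0135) and 1.03 at Ech (0.259), also below it. Abcg1 was at 3.67 and 3.58 and Nr1h2 at 4.40 and 4.35, so that Nr1h2 at both stages and Abcg1 at E4 lay above the median gene. With all 8 markers Lcat was not higher at E4 (-0.28, adjusted p = 0.434). Lrp1 was then at 0.52 at E4 and 0.82 at Ech, and Abca1 at 1.20 at E4 and 0.57 at Ech (adjusted p = 0.138). With all 8 markers Nr1h2 was at 2.89 at E4 (adjusted p = 3.91e-07) and 2.04 at Ech, and at E1 it was at 2.41 with 7 markers and 2.14 with 8. Apod, set against the 7 astrocyte markers, was at 3.56, 6.77 and 6.65 at E1, E4 and Ech. Without the pair of libraries that stood apart, Lcat also passed at E1 (0.74 ± 0.29, adjusted p = 0.0414), and at E4 the changes were 0.88 for Lcat, 1.91 for Lrp1 and 2.16 for Abca1. Since this scaling moves all genes of a library alike, the sign of a change from C follows the denominator, and only the place of a member against the markers and the median gene is read from it.

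**Figure D4:**
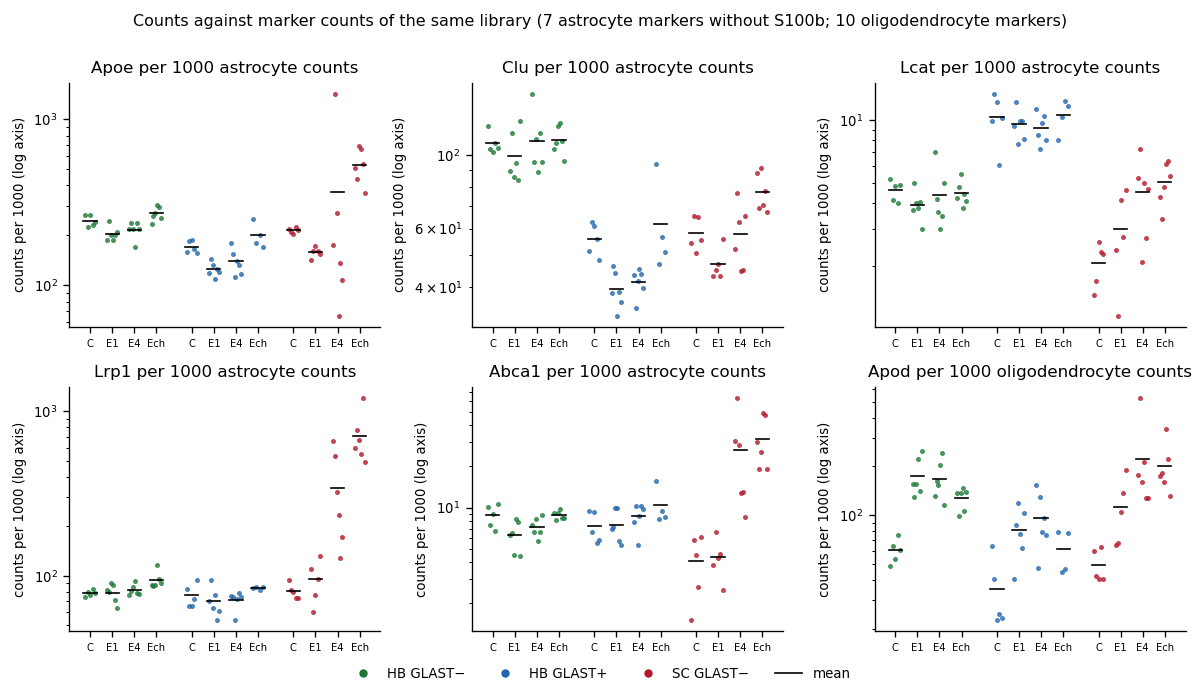
Counts of 5 members per 1000 summed counts of 7 astrocyte markers, and of Apod per 1000 summed counts of 10 oligodendrocyte markers (log axes), by population and stage, with a point per library and a line at the mean. Clu of spinal cord (SC) stays within 43.1 to 91.3 per 1000, and Apod is above its controls in each spinal cord library of EAE mice.

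Apod was also set against oligodendrocyte markers, since oligodendrocytes express it. Per 1000 counts of the 10 oligodendrocyte markers it ran from 40.4 to 63.5 in control spinal cord, from 65.7 to 190 at E1, from 127 to 528 at E4 and from 132 to 339 at Ech, with no overlap between C and any stage. The scaled changes were 1.19 (adjusted p = 0.014), 2.17 (7.4e-07) and 2.02 (6.4e-06), against shifts of the median gene of -0.88, -1.15 and -0.46. In the GLASTneg hindbrain it ran from 48.6 to 75.8 in C, from 129 to 250 at E1, from 116 to 242 at E4 and from 99.2 to 147 at Ech, with scaled changes of 1.53 ± 0.36 (adjusted p = 0.0069), 1.47 ± 0.35 (0.021) and 1.07 (0.64). Apod thus rose beyond the oligodendrocyte markers in spinal cord and in GLASTneg hindbrain at E1 and E4. In GLASTpos hindbrain the changes were 1.21 (0.069), 1.46 (0.012) and 0.82 (0.11).

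Between the EAE stages, 4 members fell in spinal cord from E1 to E4 and none from E4 to Ech, beside the falls from C to E1 given above. Apoe (-1.60 ± 0.33, adjusted p = 0.000434), Clu (-2.34 ± 0.25, 1.43e-11), Lcat (-1.70 ± 0.27, 1.44e-06) and Lrp1 (-0.87 ± 0.22, 0.00709) were lower at E4 than at E1, where 5.97% of all genes passed. From E4 to Ech, where 4.45% passed, Lrp1 was higher (0.90 ± 0.21, 0.00487). The Lrp1 call was lost in the fit of spinal cord alone (0.89, adjusted p = 0.105) and with a term for the sheet number (0.72, 0.139). From E1 to E4 the calls of Apoe and Lrp1 were lost in those fits too and without E1 replicate 2 (-0.99 and -0.59), whereas Apoe was -2.83 without E4 replicate 2, and without the pair of libraries that stood apart both passed (-2.25 and -0.80). Apod did not pass from E1 to E4 (1.11, adjusted p = 0.0611), but it did with DESeq2 (1.15, 0.0467). Apoe rose from E4 to Ech without E4 replicate 2 (1.55, adjusted p = 5.7e-06) and did not with it (0.33, 0.642). In the hindbrain none of 36 tests between stages passed in edgeR or DESeq2, and 3 had an unadjusted p under 0.05. Of all genes, 0% and 0.0857% passed there in GLASTneg cells from E1 to E4 and from E4 to Ech, and 0.0214% and 4.11% in GLASTpos cells.

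Whether spinal cord and hindbrain responded differently was tested directly as the difference between the changes from C. At E4 the change in spinal cord was lower than in GLASTneg hindbrain for Apoe (-2.84 ± 0.48, adjusted p = 5.89e-06), Clu (-3.65 ± 0.35, 4.48e-13), Lcat (-2.42 ± 0.35, 1.76e-07) and Lrp1 (-1.78 ± 0.32, 2.05e-05), 4 of 9 members against 8.56% of all genes. Without E4 replicate 2 the difference for Apoe was -4.10, and -3.91 against GLASTpos hindbrain. At Ech it was lower for Apoe, Clu, Lcat and Nr1h3 (7.2% of all genes). The same held against GLASTpos hindbrain for Apoe, Clu, Lcat, Lrp1 and Abca1 at E4 (13.4% of all genes) and for Apoe, Clu and Lcat at Ech (13.3%). Both sets of contrasts use the same spinal cord libraries. The calls of Abca1 (adjusted p = 0.0449) and Nr1h3 (0.0496) were each lost without any one of 15 libraries, such as C spinal cord replicate 1 (-1.07 and -2.55), while without the pair of libraries that stood apart Abca1 passed at E4 against GLASTneg (-1.27, adjusted p = 0.00559) and GLASTpos hindbrain (-1.74, 4.92e-05).

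The difference in the change of Apod passed for no pair of populations. Between spinal cord and GLASTneg hindbrain it was -0.50 ± 0.53, 1.05 ± 0.52 and 1.30 ± 0.52 at E1, E4 and Ech (adjusted p = 0.867, 0.227 and 0.118). Between spinal cord and GLASTpos hindbrain at E4 it was 1.42 ± 0.53 (0.0607), and it passed there without any one of 6 libraries (1.54 to 1.85). At E1 none of 18 differences between spinal cord and the hindbrain populations passed in edgeR (0.214% and 2.07% of all genes), 8 had an unadjusted p under 0.05 and DESeq2 called 1 of them, for Clu. Without E1 replicate 2, 7 of these passed, namely Clu (-1.77), Apoe (-1.81) and Lrp1 (-1.16) against GLASTneg hindbrain and Abca1 (-1.68), Apoe (-1.61), Clu (-1.39) and Lrp1 (-1.02) against GLASTpos hindbrain. That library lay within or above the range of the spinal cord controls for these members. Leaving it out enlarges the falls by construction, and the gained calls are a description and not further evidence. With the bracketed numbers of the titles, which recur across populations, as a random block in limma-voom, Apoe (-1.40, adjusted p = 0.00413) and Clu (-1.37, 0.026) passed against GLASTneg and Apoe (-1.21, 0.00739) and Lrp1 (-0.87, 0.0486) against GLASTpos hindbrain. Between the GLASTpos and GLASTneg hindbrain none of 27 differences passed in edgeR or DESeq2 (0.00857%, 0.00857% and 0.06% of all genes at the 3 stages), and 2 had an unadjusted p under 0.05.

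Already in unimmunized mice, the populations differed. Against GLASTneg hindbrain, GLASTpos hindbrain had lower Clu (-1.12 ± 0.25, adjusted p = 0.000671) and Apod (-2.06 ± 0.41, 0.000106) and higher Lcat (0.99 ± 0.24, 0.00189), 3 of 9 members where 13.5% of all genes passed. Apoe, at 2753 ± 313 against 4433 ± 389 CPM without overlap, did not pass (-0.69 ± 0.35, adjusted p = 0.169), but it did in the fit of the contrasted libraries alone (-0.71, 9.56e-05) and with the bracketed numbers as a block (-0.62, 5.99e-05). Control spinal cord had lower Clu (-1.53 ± 0.25), Abca1 (-1.77 ± 0.34) and Lcat (-1.76 ± 0.25) than GLASTneg hindbrain and higher Apod (2.51 ± 0.41) and Abcg1 (3.02 ± 0.71), 5 of 9 members where 5.33% of all genes passed. Abcg1 had 30.24, 38.05, 77.97, 22.29 and 19.19 CPM in control spinal cord and 11.47, 0.4601, 1.332, 5.194 and 3.934 CPM in control GLASTneg hindbrain, with no overlap. Spinal cord controls also had 22090 CPM of oligodendrocyte markers against 3112 CPM in the GLASTneg hindbrain. Per 1000 of these markers, Apod of spinal cord controls (40.4 to 63.5) overlapped that of GLASTneg hindbrain controls (48.6 to 75.8). With a term for the sheet number, Apod (-1.43, adjusted p = 0.071) and Lcat (1.12, 0.052) no longer passed between the hindbrain populations. All GLASTneg hindbrain libraries had sheet numbers up to 56 and all GLASTpos ones higher numbers, so that this term rests on the spinal cord libraries. All control spinal cord libraries had sheet numbers above 56 as well. Among the controls, region and sheet number therefore cannot be told apart between spinal cord and GLASTneg hindbrain.

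In the order of the 12 group means, most neighbours could not be told apart. For Apoe the order ran from the 4 GLASTneg hindbrain groups (4485 to 4132 CPM) through GLASTpos hindbrain and control spinal cord (2753 to 2240 CPM) to spinal cord at E1 (1032 CPM), Ech (425.5 CPM) and E4 (339.5 CPM), and 2 of 11 neighbouring pairs differed, on either side of E1. Clu followed the same order of populations, and 3 of 11 pairs differed. For Apod the 3 spinal cord groups of EAE mice stood first (10210 to 4712 CPM) and control GLASTpos hindbrain last (44.8 CPM), with 3 of 11 pairs differing. Lcat was highest in the GLASTpos hindbrain groups (169 to 131 CPM), and 2 of 11 pairs differed. For Abca1 1 pair differed, that of control GLASTpos hindbrain (117 CPM) and control spinal cord (46.4 CPM), for Lrp1 2 pairs, and for Abcg1, Nr1h2 and Nr1h3 none.

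Other genes of the pathway, taken from lists, were also tested. No gene of the 7 lists passed at any stage in the hindbrain populations except Rxra, a partner of the LXRs, which was higher in GLASTpos cells at E4 (0.99 ± 0.29). Of all genes, 0.197 to 0.755% were called at these stages in GLASTneg and 1.43 to 2.18% in GLASTpos cells. Such shares leave few calls for lists of this size, and the count says little about the pathway. In spinal cord at E4, where 12.7% of all genes fell and 9.76% rose, 4 of 9 LXR partners and targets fell and 1 rose, and the falls were those of Smpdl3a (-4.10 ± 0.49), Srebf1, the regulator of fatty acid synthesis (-2.19 ± 0.39), Lpcat3 (-1.79 ± 0.28) and the desaturase Scd1 (-0.86 ± 0.27). Of 8 lipoprotein receptors and chaperones 4 fell and 1 rose at E4, with Lrp8 at -1.96 ± 0.53, Lrp4 at -1.61 ± 0.60, Lrpap1, the chaperone of Lrp1, at -0.91 ± 0.19 and Vldlr at 1.06 ± 0.38. Of 6 transporters, Abcg4 fell (-2.25 ± 0.42) and Abca2 rose (1.06 ± 0.26). The medians of these 3 lists were -0.86, -0.91 and -0.84 against 0 for all genes.

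Of 8 tested genes of lysosomal cholesterol, storage and oxysterols, 3 fell at E4, namely Cyp7b1, an oxysterol hydroxylase (-4.13 ± 0.36), Soat1, which esterifies cholesterol for storage (-2.49 ± 0.31), and Cyp46a1 (-2.35 ± 0.64), and 2 rose, among them Npc2 (1.01 ± 0.21). The 19 genes of cholesterol synthesis, a list taken from the study and so not independent evidence of its direction, changed in different directions over the stages. At E1 6 of them rose and none fell (3.94% and 4.48% of all genes), with Pmvk at 1.21 ± 0.27 and Hmgcs1 at 1.17 ± 0.23. At E4 3 rose and 4 fell (9.76% and 12.7% of all genes), with Pmvk at 1.44 ± 0.26. At Ech none rose and 9 fell (7.64% and 11% of all genes), with Msmo1 at -1.88 ± 0.20, and the median of the list was 0.42, -0.08 and -0.76 at E1, E4 and Ech.

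The genes whose 12 EAE group means were most like those of a member, by Pearson's r of log2(CPM + 1) over 10971 genes, were Pou3f2 for Apoe (r = 0.996), Vcam1 for Clu (0.992), Galnt6 (0.99), Cldn11 (0.988) and Mobp (0.985) for Apod, Col5a2 for Abca1 (0.985), Frmd5 for Abcg1 (0.977), Scg3 for Lcat (0.997), Trak1 for Lrp1 (0.989), Pdia3 for Nr1h2 (0.891) and Nr1d1 for Nr1h3 (0.982). Apoe and Clu had r = 0.983 with each other and Apoe and Apod r = -0.72. Cldn11 and Mobp are myelin genes of the oligodendrocyte list. The 12 means share their libraries and 3 populations, so that r describes the pattern and was not tested.

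In the FVB/N libraries the population names were in doubt. A supplementary table of the study gives 12 of the 15 libraries another population name than the sample labels, the libraries labelled hindbrain GLASTneg had a mean of 792 CPM of Hox genes against 3.37 CPM in those labelled spinal cord, and those labelled spinal cord GLASTneg had the highest Slc1a3 (10450 CPM). Levels are therefore given by label as a description of these libraries. Apoe had means of 12290 ± 178 CPM (SD, n = 3 here and below) in the libraries labelled forebrain GLASTneg, 9798 ± 505 in those labelled forebrain GLASTpos, 8961 ± 200 in those labelled hindbrain GLASTneg, 13010 ± 863 in those labelled hindbrain GLASTpos and 7088 ± 979 in those labelled spinal cord. Clu had 4562 ± 218, 3336 ± 323, 1956 ± 124, 4932 ± 539 and 2178 ± 538 CPM in the same order. Apod had 339 ± 86, 247 ± 107, 880 ± 252, 161 ± 41 and 50.1 ± 9.7 CPM, and Lcat 234 ± 13, 252 ± 57, 114 ± 21, 217 ± 39 and 495 ± 56 CPM.

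**Figure D5:**
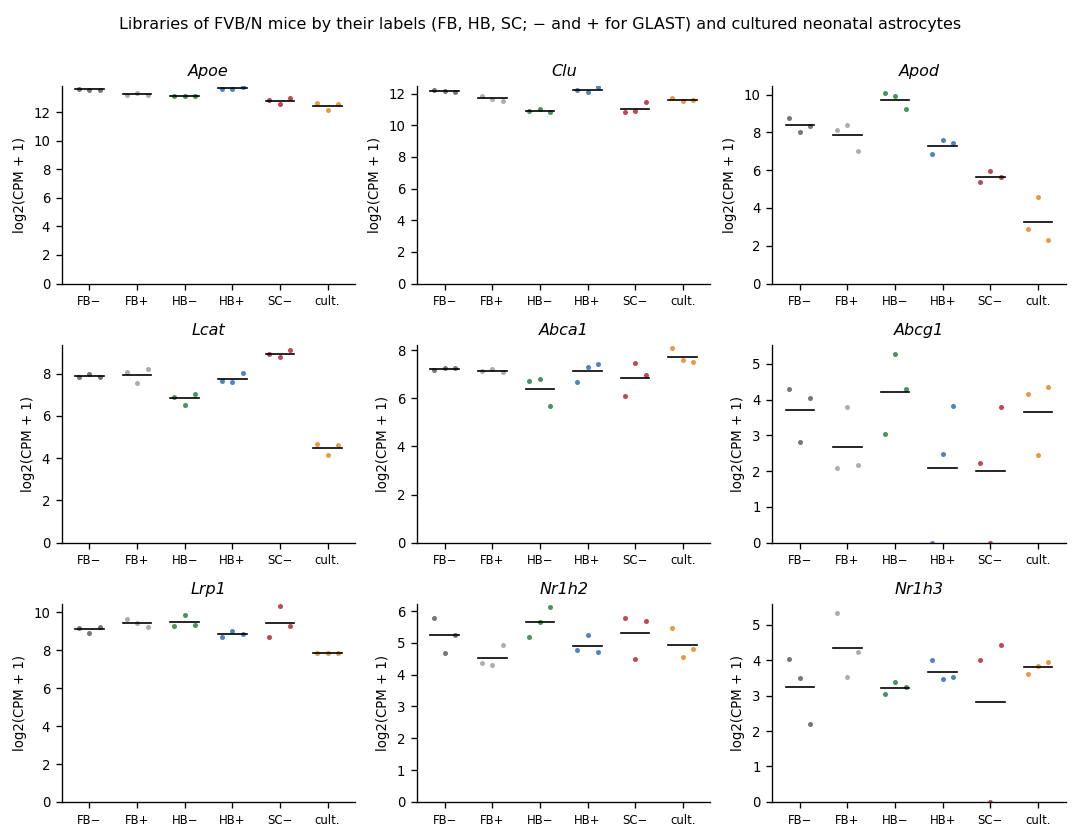
Levels of the 9 members as log2(CPM + 1) in the 18 libraries of the subtype experiment by their labels, with a point per library and a line at the mean of the log2 values. Apod is highest in the libraries labelled HB−, those with the high Hox level, and Lcat, Apod and Lrp1 are lowest in the cultured cells.

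By label, 4 of 9 members differed between the libraries labelled hindbrain GLASTpos and GLASTneg (4.29% of all 14957 genes), with higher Apoe (0.53 ± 0.17, adjusted p = 0.0486), Clu (1.33 ± 0.19) and Lcat (0.91 ± 0.27, 0.0309) and lower Apod (-2.45 ± 0.29). Between those labelled spinal cord and hindbrain GLASTneg (7.47% of genes), Lcat was higher (2.08 ± 0.28) and Apod lower (-4.16 ± 0.31). Between those labelled forebrain and hindbrain GLASTneg (2.78% of genes), Clu (1.21 ± 0.19) and Lcat (1.01 ± 0.27) were higher and Apod lower (-1.40 ± 0.28). None of 9 members passed in edgeR between the labelled forebrain populations (1.32% of genes, none by DESeq2, 1 unadjusted p under 0.05 where 7.74% of genes had one) or between those labelled forebrain and hindbrain GLASTpos (3.03% of genes, 2 by DESeq2, 4 unadjusted p under 0.05 where 10.8% of genes had one). The calls of Apoe and Lcat between the labelled hindbrain populations were lost without any one of the 6 libraries (Apoe 0.47 to 0.56, Lcat 0.75 to 1.02), and that of Lcat between forebrain and hindbrain GLASTneg without any one of 4 of 6 libraries (0.88 to 1.03). With the supplementary names the spinal cord against hindbrain contrast of Apod was 1.85 (adjusted p = 2.6e-06), of Clu -0.76 (0.016) and of Lcat -1.12 (0.012), each opposite in sign to the contrast by label. With those names Apoe (-0.48, adjusted p = 0.0941) and Clu (-0.63, 0.0374) were also opposite in sign between the hindbrain populations. Between forebrain and hindbrain GLASTpos 4 members then passed, with Apod at 1.70, Apoe at 0.90, Clu at 1.20 and Lcat at -1.17, and between forebrain and hindbrain GLASTneg Apod (0.45), Clu (0.45) and Lcat (-0.11) did not.

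The cultured neonatal astrocytes had 3210 CPM of the 8 astrocyte markers against 19570 to 21710 CPM in the means of the isolated groups. Compared with the mean of the 5 isolated groups, they had lower Apod, Lcat, Lrp1 and Apoe and higher Abca1, 5 of 9 members where 36% of 17126 genes passed. Apod had 6.365, 22.63 and 4.004 CPM in culture (-4.28 ± 0.38, adjusted p = 2.19e-12), and -5.50 without replicate 2. Lcat had a mean of 21.7 ± 4.1 CPM (SD, n = 3; -3.45 ± 0.26), Lrp1 of 229 ± 3 CPM (-1.46 ± 0.23) and Apoe of 5649 ± 943 CPM (-0.82 ± 0.14, adjusted p = 8.82e-06). Abca1 had 274.1, 192.1 and 178.8 CPM in culture (0.76 ± 0.23, adjusted p = 0.0075) and did not pass without replicate 1 (0.51, 0.17). Clu did not differ by this test (-0.01 ± 0.15, adjusted p = 0.983). The median of all genes was 0.43 in this contrast, and in this contrast culture cannot be told apart from strain and age.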

How the data were processed

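RNA of sorted astrocytes was made into QuantSeq 3′ libraries by the authors, sequenced as single reads, aligned with HISAT 0.1.5 to GRCm38 and counted per Ensembl 82 gene with HTSeq 0.6.1p1 in union mode. The deposited values are raw read counts per gene, without normalization, and whether counting used strand is not given in the sources used here. Because 3′ libraries read the end of a transcript, CPM is not divided by gene length and levels of different genes are not compared.

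The groups follow the sample labels. Rows whose total was under 10 counts were dropped, library sizes were scaled by TMM, and contrasts were tested over all groups of a table with the quasi-likelihood test of edgeR 4.0.16 (R 4.3.3), with Benjamini-Hochberg adjustment over all genes and a threshold of 0.05. The standard error is the absolute log2 fold change divided by the square root of F. Alternatives used DESeq2 1.42.0, limma 3.58.1, other scalings, filters, blocks, samples and names, and left out each library in turn. Marker-scaled fits replaced the library size by the summed counts of a marker list, and these and the fits without 2 libraries were added after the data were seen. On the CPM scale, fits that left out libraries kept the dispersion trend of the main fit. The procedure was tested on simulated data. For E4 against C in spinal cord, 18% and 12% of genes with true log2 changes of 1 and -1 were recovered. At 2 and -2 it was 68% each. For the labelled FVB/N hindbrain populations 8% and 4% were recovered at 1 and -1, and 60% and 46% at 2 and -2. In the culture contrast it was 50% and 10%, and 86% and 68%. A member that did not pass can therefore still differ. Symbols, spans and promoters were matched by identifier to GRCm38 tables, and sequences come from RefSeq.

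The members and gene lists were chosen with earlier results of these data known. Beyond the members, the genes to name were up to 4 per list with the largest absolute log2 fold change among those called at a mean level of 5 CPM or more, and the 3 genes most like each member by Pearson's r, of which some are printed. Marker genes are named where a member's value is set against them. Some genes of the lists are not reported here by name.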

Additional observations from a re-analysis of the deposited data

Results flagged for a closer look

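In each of 108 combinations of a member and a group of 4 to 6 libraries, the gap between an extreme library and its neighbour was compared with Dixon's 95% critical value, which chance alone passes in about 1 of 20 groups, and 13 passed. Of these, 6 concerned the pair of spinal cord libraries that stood apart by their markers. E1 replicate 2 was high for Apoe (2413 CPM), Clu (677.7 CPM) and Abca1 (98.9 CPM), and its astrocyte markers summed to 17000 CPM. E4 replicate 2 was high for Apoe (1322 CPM), Apod (16020 CPM) and Abca1 (58.4 CPM), and its myeloid markers summed to 4891 CPM. The part of these markers in the member values was not tested. The other 7 were Apoe in E1 GLASTpos hindbrain replicate 4 (1501 CPM, low), Clu in C spinal cord replicate 5 (920 CPM), Apod in Ech spinal cord replicate 4 (14120 CPM), Abcg1 in C GLASTpos hindbrain replicate 4 (7.87 CPM) and in E1 GLASTpos hindbrain replicate 5 (5.136 CPM), and Nr1h2 in E4 GLASTneg hindbrain replicate 5 (30.67 CPM) and in E4 spinal cord replicate 6 (30.2 CPM).

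The response to EAE differed between spinal cord and a hindbrain population in 16 of 81 tests of response differences, by the adjusted p of edgeR's interaction contrast. Of the 81 tests, 27 compared the hindbrain populations with each other, and none of the 16 was among them. Against GLASTneg hindbrain, the change in spinal cord was lower at E4 for Apoe (-2.839), Clu (-3.647), Lcat (-2.424) and Lrp1 (-1.782), and at Ech for Apoe (-2.58), Clu (-3.313), Lcat (-2.418) and Nr1h3 (-2.794). Against GLASTpos hindbrain it was lower at E4 for Apoe (-2.659), Clu (-3.155), Abca1 (-1.279), Lcat (-2.288) and Lrp1 (-1.577), and at Ech for Apoe (-2.372), Clu (-3.141) and Lcat (-2.233). Without E4 replicate 2 the differences of Apoe at E4 were -4.104 and -3.908. In the same spinal cord libraries the astrocyte markers summed to 13800 CPM in C, 3275 CPM at E4 and 4818 CPM at Ech, and their part in these differences was not tested.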

How the results depend on the processing

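Of 288 member tests, 281 kept their direction and side of the threshold with DESeq2, 285 with DESeq2's size factors (RLE) in edgeR, 288 with filterByExpr and 283 with no filter on low counts. Of 27 tests of spinal cord stages (9 members at 3 stages) 17 were called, against 11 in the fit of that population alone and 13 with a term for the sheet number. All control spinal cord libraries had sheet numbers above 56 and most E4 spinal cord libraries did not. Stage and sheet number are thus largely tied in that contrast, and no count is given for the subset above 56. Between stages 5 were called, against 2 in fits of 1 population and 2 with a term for the sheet number. The cause of these losses was not tested. Leaving out 1 library gave 14 to 18 calls for spinal cord stages, 2 to 2 for GLASTneg and 2 to 3 for GLASTpos hindbrain stages, 3 to 6 between stages, 8 to 8 between control populations, 14 to 23 for response differences, 6 to 9 in FVB/N and 4 to 5 in culture, and the 3 calls between stages were without E1 spinal cord replicate 2.

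Replicate numbers did not pair the libraries (mean correlation of same-numbered libraries -0.004 in the EAE table and -0.012 in the subtype table). With the replicate block, calls were 17 for spinal cord stages, 2 and 3 for hindbrain stages, 6 between stages, 8 between control populations, 16 for response differences, 8 in FVB/N and 5 in culture.

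Scaling to marker sums, chosen after seeing the data, moved the denominator by construction. Scaled to 10 oligodendrocyte markers, 4 of 27 tests were called in GLASTneg and 5 of 27 in GLASTpos hindbrain, against 2 and 3 in the main fit. That scaling shifted the median gene by up to -1.06 in GLASTneg (E1) and -0.81 in GLASTpos hindbrain (Ech). Scaled to 7 astrocyte markers, 1 of 27 tests was called in GLASTpos hindbrain. With 7 astrocyte markers the spinal cord changes turned for Abca1 (2.659 at E4, 2.947 at Ech), Abcg1 (3.585 at Ech), Apoe (0.757, 1.307), Clu (0.412 at Ech), Lcat (1.08, 1.264), Lrp1 (0.242 at E1, 2.087, 3.147) and Nr1h3 (2.209, 1.034). Without the pair of libraries that stood apart they turned for Abca1 (2.162), Lcat (0.739 at E1, 0.882 at E4), Lrp1 (0.368 at E1, 1.909 at E4) and Nr1h3 (2.37). With 8 markers they turned for Abca1 (1.202, 0.568) and Lrp1 (0.028 at E1, 0.515, 0.819).

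With the names of the supplementary table, the FVB/N contrasts turned for Apod (0.453) and Lcat (-0.108) between forebrain and hindbrain GLASTneg, for Apod (1.849), Clu (-0.757) and Lcat (-1.115) between spinal cord and hindbrain, for Apoe (0.896), Clu (1.198) and Lcat (-1.167) between forebrain and hindbrain GLASTpos, and for Apoe (-0.479) and Clu (-0.627) between the hindbrain populations. With limma-voom and the bracketed numbers of the titles as a random block, 8 of 99 tests gained a call, for Apoe, Clu and Lrp1, and 3 lost it, the Nr1h3 response at Ech (adjusted p = 0.225) and Apod between control populations (0.654 and 0.561), where the standard errors of Apod were 3.543 and 2.065. Depth limits Nr1h3 and Abcg1, which had libraries at or under 3 counts.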

Other observations

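Beyond the members and the lists above, the summed level of oligodendrocyte precursor markers in spinal cord had a mean of 371.2 CPM in C, 374.8 CPM at E1, 502.2 CPM at E4 and 1345 CPM at Ech (range 550.6 to 1984). In the GLASTpos hindbrain it was 20.43 CPM in C and 73.14 CPM at Ech. These sums were not tested.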
